A study of Mus musculus with 10 samples.

Results

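Iron recycling and haem handling were studied through 9 genes, Slc40a1, Hmox1, Fth1, Ftl1, Slc11a1, Slc48a1, Cd163, Blvra and Slc11a2, chosen by their known roles, with earlier results of these data known. All 9 were found among the 54532 genes of the deposited table and all 9 passed the filter on low values, which left 21296 genes for testing. RNA came from whole spleens of 5 DUSP6 KO and 5 WT mice, 1 library per mouse, taken on day 9 of arthritis that was induced by a transfer of KRN serum (KSIA), the serum of arthritic donors. DUSP6 KO mice carried the Dusp6tm1Jmol allele in every cell of the body (the sample labels call the genotype a knockdown) and WT mice were C57BL/6, both bought from the Jackson Laboratories and 8 to 12 weeks old. Mice of both groups had received 100 µL of pooled serum intraperitoneally on days 0 and 2, so that the comparison was between genotypes under arthritis, without untreated spleens. The study used males and females, and all 10 libraries here had the RNA pattern of males, with Ddx3y at 14.4 FPKM or more and Xist at 0.0206 FPKM or less. Dusp6, the deleted gene, measured 0.308 to 0.624 FPKM in DUSP6 KO and 16.6 to 24 FPKM in WT spleens, which matched every label.

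The spleen is where aged red cells are removed. Red pulp macrophages engulf them, move haem out of the phagolysosome through the transporter HRG1 (Slc48a1), and split it with haem oxygenase 1 (Hmox1) into iron, carbon monoxide and biliverdin, which biliverdin reductase A (Blvra) turns into bilirubin. Haemoglobin freed in plasma is taken up through Cd163. NRAMP1 (Slc11a1) and DMT1 (Slc11a2) carry iron across phagosomal and endosomal membranes, ferritin (Fth1 and Ftl1) stores it, and ferroportin (Slc40a1) returns it to plasma. Iron also sets the translation of some of these messages: regulatory proteins bind an iron-responsive element in the 5' untranslated region of ferritin and ferroportin RNA when iron is scarce, and elements in the 3' untranslated region of transferrin receptor RNA slow its decay. RNA levels, the quantity measured here, therefore need not follow the amount of ferritin or ferroportin protein.

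The iron-responsive elements of 3 of the 9 genes are shown because they mark the messages whose protein output iron can change without a change in RNA. They were searched on the sense strand of GENCODE M21 basic transcripts (GRCm38) as a CAGTGN loop, where N was A, C or T. The loop was closed by 5 base pairs, with G-T pairs allowed, and a C lay just before the stem. Whether that C was unpaired was not checked. Each line gives 30 bases, 5' to 3', in the sense of the gene, with the 6 loop bases in capitals.
Fth1: tttcctgcttcaaCAGTGCttgaacggaac
Ftl1: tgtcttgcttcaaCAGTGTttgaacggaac
Slc40a1: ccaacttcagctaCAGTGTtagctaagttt
The Fth1 element lay at chr19:9982731-9982760 on the plus strand, the Ftl1 element at chr7:45459779-45459808 on the minus strand and the Slc40a1 element at chr1:45925465-45925494 on the minus strand, each in the 5' untranslated part of an exon. Such a loop was present in the 5' untranslated region of 21 of 20873 genes (0.101%). For the other members no match says only that this motif is not in their annotated untranslated regions. In Tfrc, the transferrin receptor, 4 matches lay in the 3' untranslated region, where 0.452% of genes held one.

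Levels were read as FPKM, read pairs scaled by gene length and library size, a scale on which genes can be set beside each other. Fth1, the ferritin heavy chain with ferroxidase activity, had the highest level of the 9, with a mean of 2125 FPKM over the 10 libraries, followed by the ferritin light chain gene Ftl1 at 782 FPKM and Hmox1 at 433 FPKM, and the ranges of these 3 genes over the libraries did not overlap. Slc40a1 (69.5 FPKM) and Slc48a1 (68.2 FPKM) came next and overlapped each other. Slc11a1 (24.5 FPKM), Blvra (16.5 FPKM), Cd163 (12.6 FPKM) and Slc11a2 (9.22 FPKM) followed, and each overlapped its neighbour in this order. The genes lie on chromosomes 1 (Slc40a1 and Slc11a1), 2 (Blvra), 6 (Cd163), 7 (Ftl1), 8 (Hmox1), 15 (Slc48a1 and Slc11a2) and 19 (Fth1), and none shares chromosome 10 with Dusp6. Reads of the 9 genes made up 0.445% to 0.591% of the reads of a library. The member with the fewest reads, Blvra, had 538 to 878 reads per library.

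The libraries held 14990474 to 19822673 reads in genes. WT library 67 also contained RNA of exocrine pancreas, with 5 marker genes at 1.49% of its reads, and WT library 65 a trace, at 0.0195%, while the summed level of these markers was at most 0.452 FPKM in the other libraries. Results were therefore also computed without both. B cell, T cell and stroma marker lists had exact permutation p of 0.405, 1 and 0.563 for the difference of their mean level between genotypes.

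None of the 9 genes passed the limma test of DUSP6 KO against WT at an adjusted p of 0.05, a threshold that 15 of 21296 genes (0.0704%) passed. At an unadjusted p under 0.05 there was 1 of 9, Cd163, higher in DUSP6 KO, beside 5.66% of all genes in either direction and 2.62% in that direction. No member had groups that did not overlap, against 1.11% of all genes. The median log2 fold change of the 9 genes, DUSP6 KO over WT, was 0.09 (8 above 0 and 1 below), and over all genes tested it was -0.0046. Without DUSP6 KO library 73 the median of the 9 genes was -0.01, with 4 above 0 and 5 below. Without WT libraries 65 and 67 none of the 9 genes had an unadjusted p under 0.05. In bulk tissue, fewer cells of a type and less RNA per cell cannot be told apart.

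**Figure D1:**
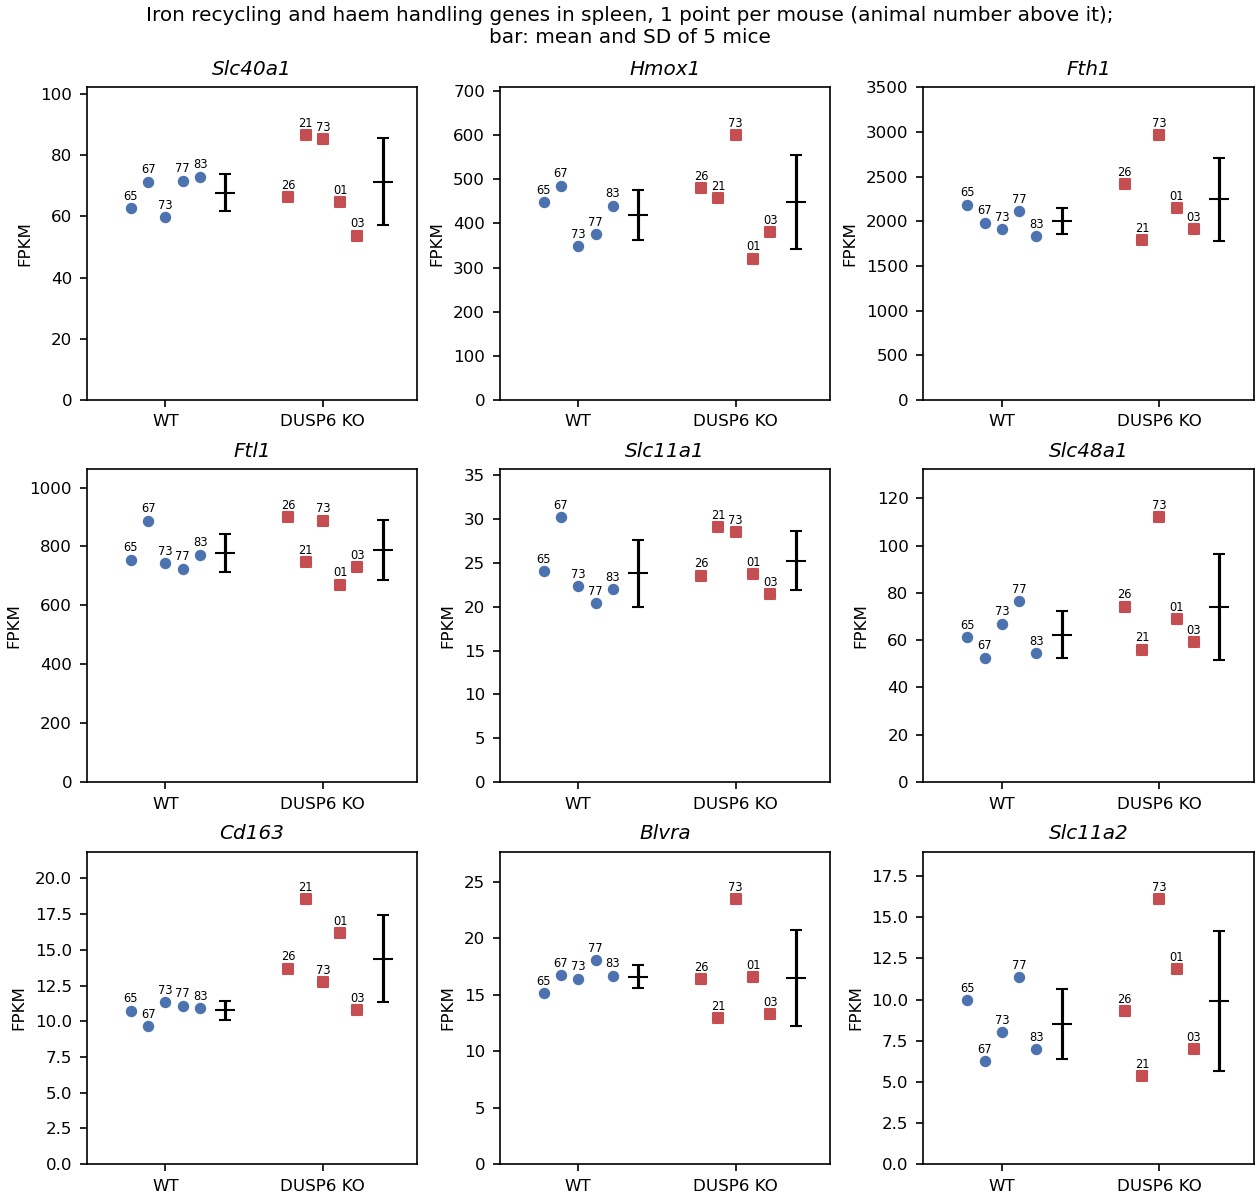
FPKM of each of the 9 genes on a linear axis from 0, with 1 point per mouse (circles WT, squares DUSP6 KO, animal number above the point) and the mean and SD of 5 mice beside each group. The groups overlap for all 9 genes, and DUSP6 KO animal 73 is the highest of all 10 mice for Hmox1, Fth1, Slc48a1, Blvra and Slc11a2.

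Values are given below for DUSP6 KO animals 26, 21, 73, 01 and 03 and then for WT animals 65, 67, 73, 77 and 83. Slc40a1, the only known exporter of iron from cells, measured 66.2, 86.7, 85.4, 64.8 and 53.7 FPKM in DUSP6 KO and 62.7, 71.4, 59.8, 71.8 and 73.1 FPKM in WT spleens. The highest pair of values and the lowest value were all in DUSP6 KO mice, on either side of the WT range. The means were 71.4 ± 14.3 and 67.7 ± 6.05 FPKM (SD, n = 5 each). On the log2 scale the fold change was 0.06 (SE 0.13, 95% interval -0.24 to 0.35, limma adjusted p = 0.993).

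Neither ferritin gene passed the test. Fth1 measured 2412, 1786, 2967, 2144 and 1911 FPKM in DUSP6 KO and 2188, 1984, 1911, 2115 and 1831 FPKM in WT spleens. Animals 73 and 26 of the DUSP6 KO group were above every WT mouse and animal 21 was below every WT mouse, and the log2 fold change was 0.14 (SE 0.18, 95% interval -0.26 to 0.54, limma adjusted p = 0.993). Without DUSP6 KO animal 73 it was 0.03 and without DUSP6 KO animal 21 it was 0.22. Ftl1, whose light chain helps iron to mineralise inside the ferritin shell, measured 899.7, 746, 887, 669.7 and 729 FPKM in DUSP6 KO and 755, 887, 744, 724 and 773 FPKM in WT spleens. The groups overlapped over nearly their whole range, and the log2 fold change was 0.01 (SE 0.12, 95% interval -0.26 to 0.29).

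The balance of the 2 subunits does not depend on how libraries were scaled to each other. Fth1 over Ftl1 was 2.68, 2.39, 3.34, 3.20 and 2.62 in DUSP6 KO and 2.90, 2.24, 2.57, 2.92 and 2.37 in WT spleens, on the ratio of FPKM values. The means were 2.85 ± 0.406 and 2.60 ± 0.307 (SD, n = 5 each), a log2 difference of 0.13 that an exact two-sided permutation test did not separate (p = 0.294, smallest possible p = 0.00794). Ftl1-ps1, a processed copy of the light chain gene, was the only annotated ferritin copy with a mean above 1 FPKM, at 11 to 16.8 FPKM. Reads assigned to the 3 light chain copies equalled 1.22% to 2.05% of the Ftl1 reads. Those of the 2 heavy chain copies equalled at most 0.0246% of the Fth1 reads. How reads that fit both a copy and its parent gene were counted is not given in the sources used here. These shares therefore do not bound the uncertainty of Ftl1 or Fth1.

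Among the genes of haem breakdown, Hmox1 measured 480.5, 457, 601, 319.7 and 381 FPKM in DUSP6 KO and 448, 485, 348, 375 and 440.2 FPKM in WT spleens. The highest and the lowest mouse were both DUSP6 KO, animals 73 and 01, and the log2 fold change was 0.07 (SE 0.17, 95% interval -0.31 to 0.45, limma adjusted p = 0.993). Blvra measured 16.3, 12.9, 23.4, 16.6 and 13.3 FPKM in DUSP6 KO and 15.1, 16.7, 16.4, 18.0 and 16.7 FPKM in WT spleens. Blvra had the only negative fold change of the 9 genes, -0.04 on the log2 scale (SE 0.15, 95% interval -0.37 to 0.29), with WT mice within a narrow range inside that of the DUSP6 KO mice.

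Slc48a1, which exports haem from the phagolysosome, measured 74.1, 56.0, 112, 69.0 and 59.2 FPKM in DUSP6 KO and 61.1, 52.6, 67, 76.6 and 54.5 FPKM in WT spleens. Only DUSP6 KO animal 73 was above the WT range, and the log2 fold change of 0.22 (SE 0.18, 95% interval -0.19 to 0.62) was 0.05 without that library. Slc11a1, expressed in phagocytes, measured 23.5, 29.1, 28.5, 23.7 and 21.4 FPKM in DUSP6 KO and 24.1, 30.2, 22.3, 20.4 and 22 FPKM in WT spleens. No DUSP6 KO mouse was above the highest WT mouse, and the log2 fold change was 0.09 (SE 0.12, 95% interval -0.18 to 0.36). Slc11a2 was the member with the widest spread, at 9.31, 5.33, 16.1, 11.8 and 7.0 FPKM in DUSP6 KO and 9.96, 6.26, 8.0, 11.4 and 7.0 FPKM in WT spleens. Its log2 fold change was 0.15 (SE 0.28), and the 95% interval of -0.48 to 0.77 was the widest of the 9.

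The spread between mice was larger in DUSP6 KO than in WT spleens for 8 of 9 genes, all but Slc11a1. The coefficient of variation, the SD as a percentage of the mean, was 20.9% in DUSP6 KO against 7.27% in WT for Fth1, 25.7% against 6.29% for Blvra and 20% against 8.94% for Slc40a1. The difference in spread was not tested.

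Cd163, a scavenger receptor for haemoglobin, was higher in DUSP6 KO spleens on average. It measured 13.7, 18.5, 12.7, 16.2 and 10.8 FPKM in DUSP6 KO and 10.7, 9.68, 11.3, 11.1 and 10.9 FPKM in WT spleens. In 4 of 5 DUSP6 KO mice it was above every WT mouse, and animal 03 was within the WT range. The means were 14.4 ± 3.03 and 10.8 ± 0.642 FPKM (SD, n = 5 each), and the fitted log2 fold change was 0.39, or 1.31-fold (SE 0.13, 95% interval 0.10 to 0.69). The unadjusted limma p was 0.014, the adjusted p over all genes was 0.731, and the exact two-sided permutation test gave p = 0.0317 for this gene alone. By unadjusted p it ranked 404 of 21296 genes. Without the WT libraries 65 and 67 the fold change was 0.34 and the unadjusted limma p rose to 0.075.

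Macrophage markers were read beside Cd163 as whole lists. Of 8 red pulp macrophage markers, 2 had an unadjusted p under 0.05, both higher in DUSP6 KO (2.62% of all genes were). These were Adgre1, which encodes F4/80 (log2 fold change 0.38), and Treml4 (0.47), both with every DUSP6 KO mouse above every WT mouse. Over all genes, 1.11% had groups that did not overlap. Vcam1, which these cells carry, had a log2 fold change of -0.11 and Cd5l, a secreted macrophage protein, -0.50, neither at an unadjusted p under 0.05. The mean log2 level of the list was 5.27 ± 0.292 in DUSP6 KO and 5.21 ± 0.0470 in WT spleens (SD, n = 5 each, exact permutation p = 0.643). The summed level of the list ran from 304.5 to 487 FPKM in DUSP6 KO and from 346 to 373 FPKM in WT, and no marker was at 0. Relative to the list mean in the same library, Cd163 was 0.33 higher in DUSP6 KO on the log2 scale (exact permutation p = 0.0714), and none of the other 8 genes had an exact permutation p below 0.437.

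Receptors of marginal zone macrophages were also higher in DUSP6 KO spleens on average. Marco, which binds bacteria, had a log2 fold change of 0.72 and Cd209b (SIGN-R1) of 0.89. Both had no overlap between the groups (1.11% of all genes had none). The log2 fold change of Siglec1 was 0.54 and that of Msr1 0.05. The mean log2 level of these 4 markers was 3.76 ± 0.467 in DUSP6 KO and 3.21 ± 0.183 in WT spleens (SD, n = 5 each, exact permutation p = 0.0397), and their summed level ran from 106 to 181 FPKM and from 80.4 to 105 FPKM. Of 6 monocyte markers, Csf1r and Cx3cr1 were higher and Ly6c2, Ccr2 and F13a1 lower at an unadjusted p under 0.05. Over all genes, 2.62% were higher and 3.03% lower at that threshold. The mean log2 level of the monocyte list was 3.97 ± 0.212 in DUSP6 KO and 4.21 ± 0.0699 in WT spleens (SD, n = 5 each, exact permutation p = 0.0397), a difference of -0.25, and its summed level ran from 184 to 254 FPKM and from 192 to 212 FPKM. None of these markers passed the adjusted threshold of the limma test on FPKM used here. The paper, with DESeq2 on counts, lists Marco and Cd209b among the genes significantly higher in DUSP6 KO spleens. The part of any of these cells in the Cd163 level was not tested.

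**Figure D2:**
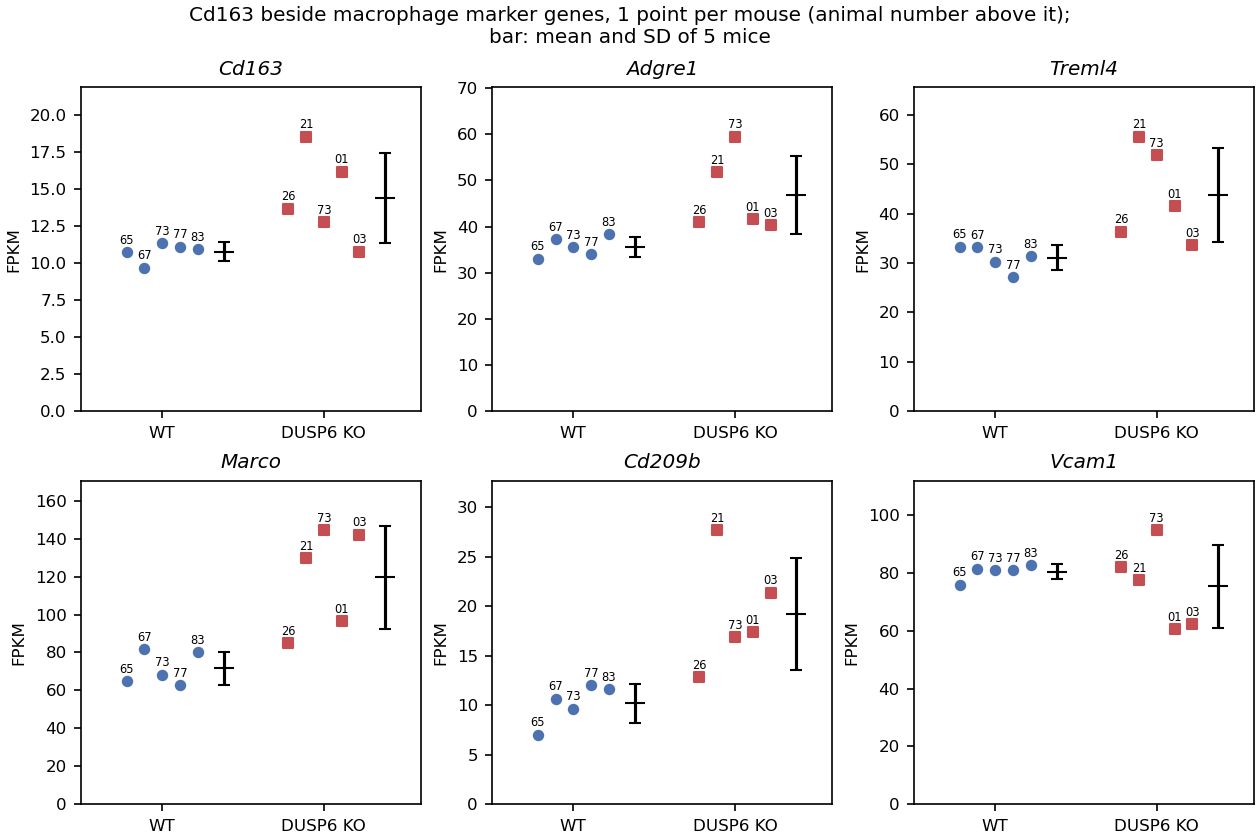
FPKM of Cd163 beside 3 red pulp macrophage markers (Adgre1, Treml4, Vcam1) and 2 marginal zone macrophage markers (Marco, Cd209b), with 1 point per mouse on linear axes from 0 and the mean and SD of 5 mice beside each group. Adgre1, Treml4, Marco and Cd209b do not overlap between the groups, Cd163 overlaps through DUSP6 KO animal 03, and Vcam1 overlaps in WT and DUSP6 KO mice.

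Some of the 9 genes varied together from mouse to mouse. After the genotype mean was subtracted from log2 values, Pearson's r over the 10 libraries lay between 0.81 and 0.89 for every pair among Fth1, Slc48a1, Blvra and Slc11a2. Hmox1 and Ftl1 had r = 0.85, Hmox1 and Slc11a1 0.64, Slc40a1 and Slc11a1 0.62 and Slc40a1 and Hmox1 0.62, while Slc11a1 and Ftl1 had 0.54 and Slc40a1 and Ftl1 0.36. Between the first 4 genes and these 4, r ran from -0.20 for Slc11a1 with Slc11a2 to 0.53 for Fth1 with Ftl1. Cd163 reached at most 0.47 with any member, with Slc40a1. These coefficients describe 10 libraries that share their scaling, and no test was made of them. They were not computed in WT or DUSP6 KO mice alone.

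**Figure D3:**
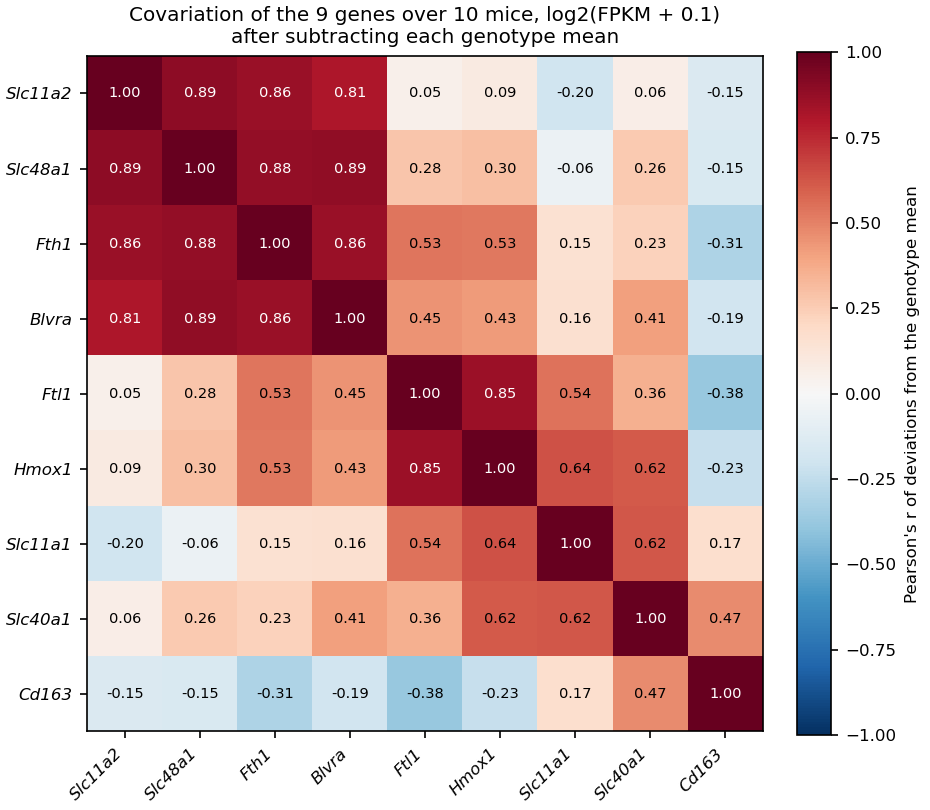
Pearson's r for each pair of the 9 genes over 10 mice, computed on log2(FPKM + 0.1) after subtraction of the genotype mean; colour runs from -1 (blue) to 1 (red). Slc11a2, Slc48a1, Fth1 and Blvra form a block with r of at least 0.81, and Cd163 has no r above 0.47.

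Erythroid transcripts varied widely between these spleens. Haemoglobin genes took 1.74% to 7.56% of the reads of a library, and the mean log2 level of 13 erythroid markers was 8.07 ± 1.14 in DUSP6 KO and 7.87 ± 0.841 in WT spleens (SD, n = 5 each, exact permutation p = 0.754). DUSP6 KO animal 73 had the highest level, 9.55, and DUSP6 KO animal 21 and WT animal 67 the lowest, 6.55 and 6.59. None of the 13 markers had an unadjusted p under 0.05. The members were set against this list and against the red pulp macrophage list, 18 relations in all, which were chosen after the values were seen.

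Slc11a2, which moves iron out of the endosomes of red cell precursors, followed the erythroid list most closely. Over 10 mice Pearson's r was 0.95 (permutation p = 3e-05, Benjamini-Hochberg adjusted p = 0.00045) and Spearman's rho 0.94 (permutation p = 3e-04, adjusted p = 0.0027). Without animals 21 and 67, the libraries farthest from the median, r was 0.93. Slc48a1 had r = 0.89 (permutation p = 5e-05, adjusted p = 0.00045) and rho = 0.93 (permutation p = 0.00025, adjusted p = 0.0027), and r was 0.95 without the same libraries. Both genes were high in the mice with many erythroid transcripts, whichever their genotype.

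Fth1 had r = 0.78 with the erythroid list (permutation p = 0.006, adjusted p = 0.027) and rho = 0.72 (permutation p = 0.023, adjusted p = 0.1), and r was 0.84 without animals 21 and 67 and 0.65 without DUSP6 KO animal 73. Blvra had r = 0.76 (permutation p = 0.01, adjusted p = 0.036) and rho = 0.61 (permutation p = 0.067, adjusted p = 0.23), with r of 0.90 without animals 21 and 67 and 0.59 without DUSP6 KO animal 73. The rank correlation of Fth1 and of Blvra thus missed the adjusted threshold, while that of Slc11a2 and of Slc48a1 passed it. The same 4 genes gave residual r of 0.77 to 0.95 with the list once the genotype means were removed.

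Slc40a1 had r = 0.02 with the erythroid list, which became 0.74 without animals 21 and 67, and r = 0.85 with the red pulp macrophage list (permutation p = 0.0028, adjusted p = 0.017), with rho = 0.72 (permutation p = 0.023, adjusted p = 0.1). This relation rests on DUSP6 KO animals 73 and 21, which had the highest macrophage levels: without both, r was 0.56. Hmox1 had r = 0.73 with the red pulp list (permutation p = 0.017, adjusted p = 0.051) and rho = 0.58 (permutation p = 0.089, adjusted p = 0.23), and 0.54 without the same animals. Hmox1, Ftl1, Slc11a1 and Cd163 passed the adjusted threshold with neither list. Taking the erythroid level into the limma fit as a covariate left the fold change of Cd163 at 0.40 (unadjusted p = 0.0138) and that of Slc11a2 at 0.05.

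**Figure D4:**
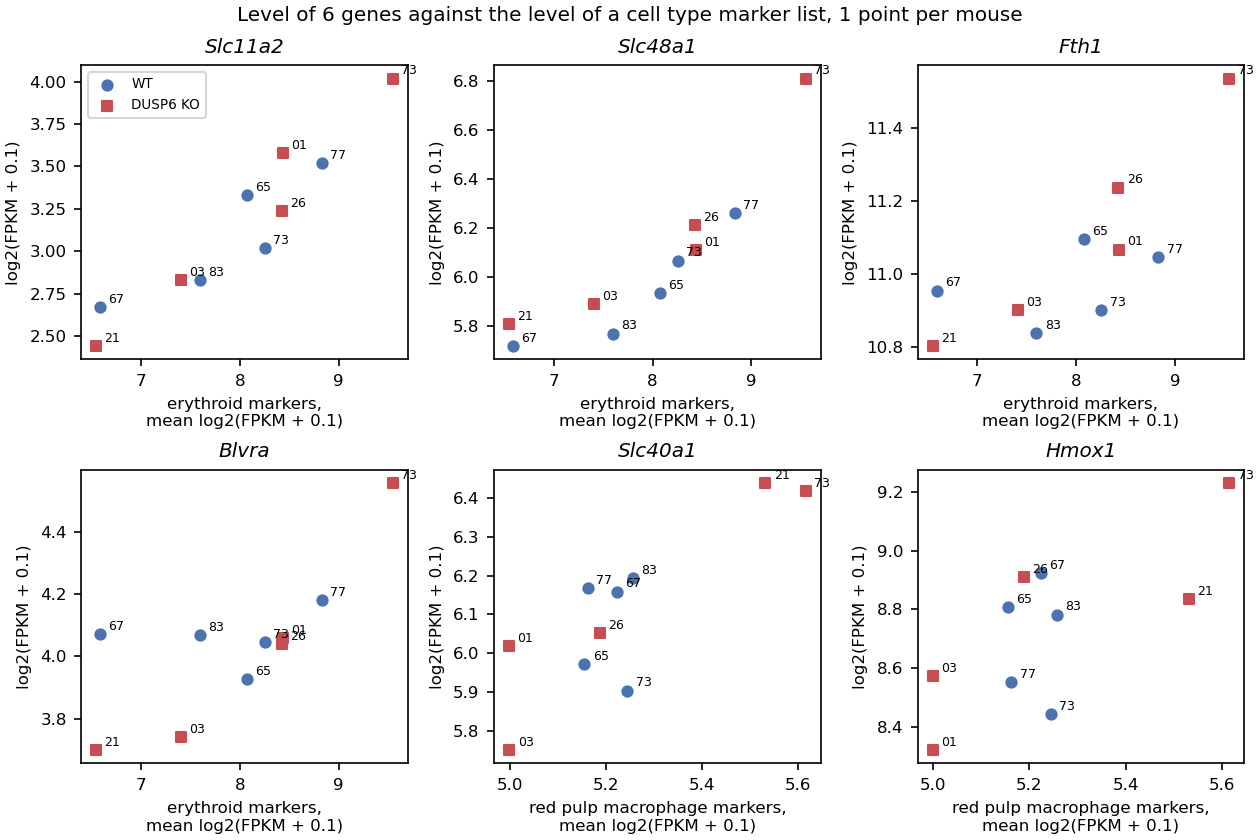
Level of 6 genes, log2(FPKM + 0.1), against the mean log2(FPKM + 0.1) of 13 erythroid markers (Slc11a2, Slc48a1, Fth1, Blvra) or 8 red pulp macrophage markers (Slc40a1, Hmox1), with 1 point per mouse (circles WT, squares DUSP6 KO, animal number beside the point). Slc11a2 and Slc48a1 are higher where the erythroid level is higher (r = 0.95 and 0.89), and in the Slc40a1 panel animals 73 and 21 stand apart at the upper right.

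For each member the 3 genes with the most similar pattern were sought among 8073 genes that averaged 5 FPKM or more, by Pearson's r of the log2 values over 10 libraries after subtraction of the genotype means. They were Erlin2, Cyp4b1 and Dennd6a for Slc40a1 (r = 0.92 to 0.95), and Emc7, Tspan4 and Fam213b for Hmox1 (0.94 to 0.96). For Fth1 they were Psmb4, Taldo1 and Pbdc1 (0.97 to 0.98), and for Ftl1 Casc3, Sbds and Dad1 (0.92 to 0.96). Slc11a1 was closest to Tlr7, Slc43a2 and Gm7536 (0.90 to 0.93), and Cd163 to Slc39a9, Trappc8 and Ranbp6 (0.87 to 0.89). Slc48a1 was closest to Yipf4, D17Wsu92e and Creg1 (each 0.99) and Slc11a2 to E2f4, Suox and Ran (0.995 to 0.996). Blvra was closest to Txnrd1, Cnih1 and Eif2d (0.96 to 0.97). These are the highest of 8073 coefficients over only 10 libraries. How high the closest of so many unrelated genes would come was not computed, so no shared regulation can be read from them.

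The wider pathway was read from 57 further genes of iron and haem handling, of which 54 passed the filter. None passed the adjusted threshold. At an unadjusted p under 0.05, 2 were higher in DUSP6 KO (2.62% of all genes were) and 2 lower (3.03% of all genes were). Of the 54, 1 gene, Txnrd1, had groups that did not overlap, against 1.11% of all genes. The median log2 fold change was 0.09. Hamp, the hormone hepcidin that removes ferroportin from the cell surface, had 1 read in 1 library and 0 in the others, and Hamp, Hpx and Ftmt were below the filter. Hamp2 passed the filter only through WT library 67, which contained pancreas RNA, at 1.89 FPKM, and was at 0 in the others.

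**Figure D5:**
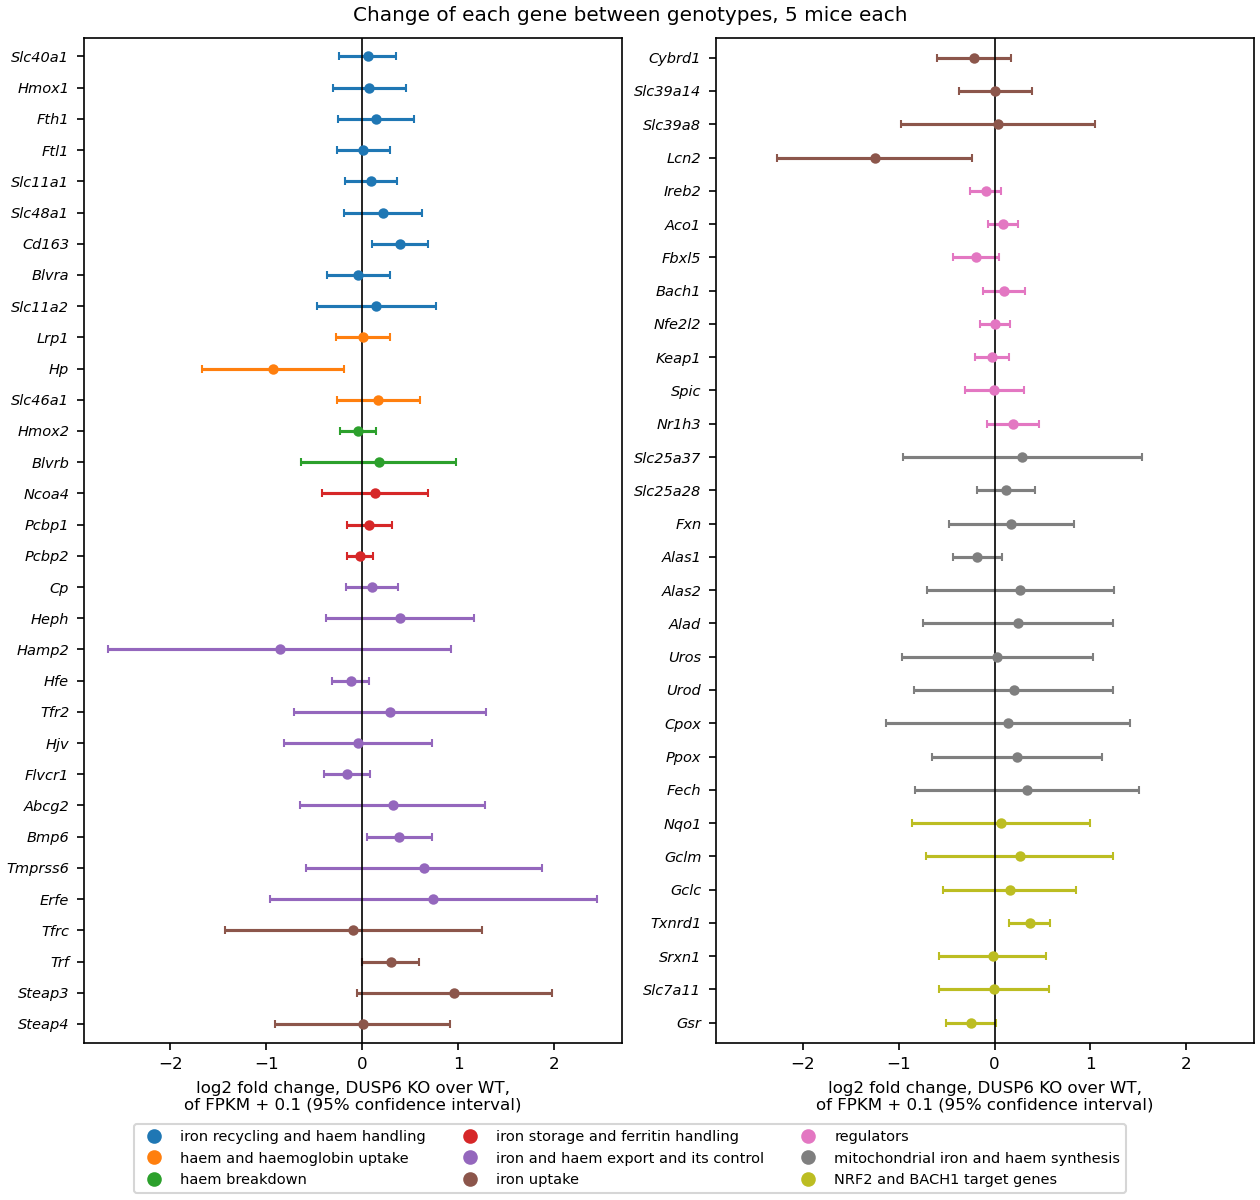
Log2 fold change of FPKM + 0.1, DUSP6 KO over WT, for the 9 genes and wider pathway genes that passed the filter, with 95% confidence intervals of the limma fit and a colour for each role. The interval lies above 0 for Cd163, Bmp6 and Txnrd1 and below 0 for Hp and Lcn2, and it covers 0 for the other genes shown.

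Txnrd1, the cytosolic thioredoxin reductase and a target of the transcription factors NRF2 and BACH1 that also control Hmox1 and ferritin, measured 15.0, 14.2, 19.8, 16.0 and 13.9 FPKM in DUSP6 KO and 11.6, 11.8, 11.9, 13 and 12.3 FPKM in WT spleens. Every DUSP6 KO mouse was above every WT mouse, and the log2 fold change was 0.37 (SE 0.10, limma p = 0.00355 unadjusted and 0.467 adjusted, exact permutation p = 0.00794). Txnrd1 lies on chromosome 10, 16.4 Mb from Dusp6 and 0.204 Mb from Tdg, a DNA glycosylase gene that was -2.16 on the log2 scale (adjusted p = 4.52e-05 by limma). The part of this position in the Txnrd1 difference was not tested. The other 6 targets on the list had unadjusted p above 0.05, with log2 fold changes from -0.24 for Gsr, glutathione reductase, to 0.27 for Gclm.

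Bmp6, the signal through which liver vessels report iron stores to hepcidin, measured 4.36, 5.86, 3.41, 3.65 and 4.31 FPKM in DUSP6 KO and 2.82, 3.02, 3.03, 3.92 and 3.41 FPKM in WT spleens. The groups overlapped, and the log2 fold change was 0.39 (SE 0.15, limma p = 0.0285 unadjusted and 0.791 adjusted, exact permutation p = 0.0317). The unadjusted limma p was between 0.0514 and 0.0668 without DUSP6 KO library 26, 21 or 03 or WT library 65, 67 or 73, and without both WT libraries 65 and 67 it was 0.146, with a log2 fold change of 0.30.

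Hp encodes haptoglobin, the plasma protein that binds haemoglobin. It measured 21.3, 31.8, 34.4, 12.4 and 15.2 FPKM in DUSP6 KO and 33.5, 33.6, 42.6, 78.0 and 29.9 FPKM in WT spleens. The log2 fold change was -0.93 (SE 0.33, limma p = 0.018 unadjusted and 0.753 adjusted, exact permutation p = 0.0556). Lcn2, which binds the iron carriers of bacteria, measured 25.0, 14.6, 47.6, 13.7 and 16.9 FPKM in DUSP6 KO and 36.1, 25.8, 56.5, 136 and 43.4 FPKM in WT spleens. Its log2 fold change was -1.25 (SE 0.46, limma p = 0.0202 unadjusted and 0.767 adjusted, exact permutation p = 0.0476), and without DUSP6 KO library 21 or 01 the unadjusted limma p was 0.0522 or 0.0528. WT animal 77 was the highest for both genes. Hp and Lcn2 are also stored in neutrophil granules. Of 8 neutrophil markers, 6 had an unadjusted p under 0.05, all lower in DUSP6 KO (3.03% of all genes were). The mean log2 level of that list was 5.46 ± 0.651 in DUSP6 KO and 6.46 ± 0.750 in WT spleens (SD, n = 5 each, exact permutation p = 0.0635), and its summed level ran from 548 to 1918 FPKM and from 1097 to 4756 FPKM. The part of neutrophils in the Hp and Lcn2 differences was not tested.

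The most abundant gene of each other role gave no difference at an unadjusted p under 0.05. The log2 fold change was 0.17 for Blvrb, a second biliverdin reductase abundant in red cells, 0.07 for Pcbp1, an iron chaperone that loads ferritin, and -0.12 for Hfe, which takes part in iron sensing. It was -0.10 for Tfrc, whose level ran from 23.2 to 193 FPKM in DUSP6 KO and from 24.9 to 173 FPKM in WT spleens. Alas2, the erythroid enzyme that starts haem synthesis, had a log2 fold change of 0.27 (95% interval -0.71 to 1.24). Spic, the transcription factor required for red pulp macrophages, had means of 29.1 ± 5.36 FPKM (DUSP6 KO) and 29 ± 3.72 FPKM (WT; SD, n = 5 each), and the 95% interval of its log2 fold change was -0.31 to 0.30.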

How the data were processed

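RNA of 10 spleens was sequenced as paired-end reads from poly-A selected libraries. According to the labels and the methods, the authors used Hisat2 for alignment, featureCounts for counting and DESeq2 for testing. They deposited FPKM values with gene lengths, the only values used here. Whether counting used the strand, and which total FPKM was scaled to, is not given in the sources used here. The labels name a human genome build, while 100% of 54409 gene IDs matched to GENCODE M21 lay on the same chromosome and overlapped the GRCm38 position. FPKM times length gave whole reads for 100% of values (tolerance 0.001), and these gave the depth. The scaled total behind FPKM was 0.949 to 1.12 times the reads in genes.

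Groups were compared by limma's moderated test with a variance trend (version 3.58.1, R 4.3.3), applied to log2(FPKM + 0.1) of genes averaging 0.1 FPKM or more and adjusted by Benjamini-Hochberg over 21296 genes, and it was tested on simulated data. A fold change on this scale understates the change of low genes. Single values were compared by exact two-sided permutation tests of 5 against 5, and correlations by 100000 permutations. P-values measure the spread between mice. Members and lists were chosen with earlier results of these data known. Genes named were the 9 members, wider pathway genes with an unadjusted p under 0.05 or the highest mean of their role, the 3 genes closest to each member, ferritin copies of at least 1 FPKM, and markers that define a list or had an unadjusted p under 0.05. Steap3, Tdg, Gclm, Alad, Fech, Slc25a37, Hamp2, and genes named as below the filter or for their p under an alternative, were added after their values were seen. Of 22 alternatives, 20 were planned and 2 were added after the data were seen: leaving out both libraries with pancreas RNA, and the erythroid level as a covariate. Replicates are named by the number in the sample title, which was taken as the animal number. 1 gene of the wider pathway list enters the counts and is not reported or plotted here.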

Additional observations from a re-analysis of the deposited data

Results flagged for a closer look

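In 48 groups of 5 libraries, Dixon's test (critical value 0.71) set 3 values apart from the other 4, where chance alone would give about 1 in 20 groups. Hp was 77.976 FPKM in WT animal 77, with a gap to the next mouse of 0.737 of the range. Lcn2 was 136.326 FPKM in the same animal, with a gap of 0.722 of the range. That library also had the highest level of S100a8 and S100a9 in the neutrophil list, and the link was not tested. The mean log2 level of the exocrine pancreas list was -2.6097 in DUSP6 KO animal 03, against a group in which every marker was near 0.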

How the results depend on the processing

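No member was called at an adjusted p of 0.05 under any of the 22 alternatives, and Cd163 kept an unadjusted p under 0.05 in 21 of them, with log2 fold changes of 0.29 to 0.49. The exception was the fit without WT libraries 65 and 67, where 0 of 9 members had an unadjusted p under 0.05. Leaving out single libraries moved the number of genes called from 15 to between 12 (without DUSP6 KO 03) and 32 (without DUSP6 KO 21), and the erythroid covariate gave 29. That covariate gave 9 wider pathway genes with an unadjusted p under 0.05 in place of 4: Hp, Bmp6, Erfe, Tfrc, Trf, Steap3, Lcn2, Fbxl5 and Txnrd1. The count over all 21296 genes rose as well. With the covariate 845 genes were higher and 902 lower at that threshold, against 559 and 646 in the main fit. Over the fits without 1 library, the log2 fold change of Ftl1 ran from -0.039 to 0.068, Slc40a1 from -0.019 to 0.15, Blvra from -0.17 to 0.040, Hmox1 from -0.042 to 0.18 and Slc11a2 from -0.052 to 0.34, so their signs depended on single mice. Over the same fits Fth1 ran from 0.034 to 0.22, Slc11a1 from 0.034 to 0.18, Slc48a1 from 0.055 to 0.30 and the log2 difference of the Fth1 to Ftl1 ratio from 0.068 to 0.19, and the median of the 9 genes ran from -0.014 (without DUSP6 KO 73) to 0.15. No other alternative turned the sign of a member. Of the exact tests of single members, between 0 (without WT 65 or WT 67) and 1 had p under 0.05, and of those relative to red pulp markers between 0 and 1 (Cd163, without DUSP6 KO 73). The cause was not tested. No paired analysis was made because the groups were different mice, and the number 73 in both groups does not link them. Expression was measured in RNA of whole spleens and scaled to library size, so that neither levels per cell nor amounts per spleen were measured.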

Other observations

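Steap3, the endosomal reductase that prepares iron for export into the cytosol of red cell precursors, was singled out after its values were seen. It measured 19.1, 7.21, 40.2, 26.7 and 12.2 FPKM in DUSP6 KO animals 26, 21, 73, 01 and 03 and 11.6, 4.56, 8.48, 16.6 and 8.54 FPKM in WT animals 65, 67, 73, 77 and 83. The groups overlapped, and the log2 fold change was 0.96 (SE 0.46, limma p = 0.0623 unadjusted and 0.921 adjusted, exact permutation p = 0.111). Set against the mean of the 13 erythroid markers in the same library, every DUSP6 KO mouse was above every WT mouse, with a log2 difference of 0.75, or 1.69-fold (exact two-sided permutation p = 0.00794, the smallest possible). Of 18 iron and haem genes set against that list it had the lowest p, and after Benjamini-Hochberg adjustment over the 18 p was 0.143. With the erythroid level as a covariate in the fit of all genes the log2 fold change was 0.79 (limma adjusted p = 0.065). Steap3 lies on chromosome 1, 7.62 Mb from Map3k19, which the paper lists among the genes lowest in DUSP6 KO spleens. Marco, at chr1:120474538-120505024, lies close to Steap3, at chr1:120190757-120272705. The part of this position in the Steap3 and Marco differences was not tested.

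Several other genes of haem synthesis were set against the erythroid list in the same way. Relative to it, the log2 difference was 0.06 for Alas2, 0.04 for Alad, 0.13 for Fech, which inserts iron into the haem ring, and 0.09 for Slc25a37, the mitochondrial iron importer of red cell precursors, with exact permutation p between 0.159 and 0.865.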
